A study of Mus musculus with 8 samples.

Results

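The 8 genes described here are Srebf2, Hmgcs1, Sqle, Insig1, Idi1, Fdft1, Msmo1 and Cyp51, the gene of the transcription factor SREBP2 and 7 genes of sterol synthesis and its control that SREBP2 is known to turn on. They were listed by name among the 30406 genes that all libraries hold. The rule is a list of names with no threshold on a measured value, and it was set with earlier results of these data known. UMIs (unique molecular identifiers, which count captured transcripts) of each gene were summed per library and cell cluster and are given as CPM, UMIs of the gene per 1e+06 UMIs of that sum. The scRNA-seq data come from 8 libraries of leukocytes from C57BL/6 mice, sorted as CD45+ cells that an antibody to CD45 given intravenously shortly before death had not reached (CD45iv-CD45+). Control animals gave 1 library each of brain parenchyma, pia mater and dura mater, the inner and outer membranes of the brain. Animals 24 h after transient middle cerebral artery occlusion (MCAO), a stroke model, gave 2 libraries of brain (replicates 1 and 2), 1 of pia and 1 of dura, and animals 72 h after MCAO gave 1 of brain. All were wild-type, adult males of 10 to 16 weeks by the study's methods, and animals of repeat experiments were pooled for each compartment, with no number of animals for each library in the sources used here. The controls are naive animals in one place of the study and sham-operated in another.

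Cells need cholesterol for their membranes and make it from acetyl groups through mevalonate, squalene and lanosterol. When sterols in the endoplasmic reticulum run low, the SREBP2 precursor is carried to the Golgi, cut, and its free part moves to the nucleus, where it turns on the genes of this route. When sterols are ample, INSIG proteins hold the precursor back. In leukocytes, which also take up cholesterol from lipoproteins and from dead cells, the route is known to respond to activation, division and lipid load.

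All 21 clusters of the authors' annotation were used, with 32457 of 36854 barcodes. The 8 genes had 13098 UMIs in these cells, from 582 of Fdft1 to 2876 of Msmo1, and 112 of 168 possible sums of a cluster in a library held at least 30 cells and were used for levels. Total UMIs per library ranged from 6591898 to 20754181. Each mean ± SD below is over libraries, which share a cluster but not a tissue or time, so the SD holds those differences too. The library of brain at 72 h and the second one of brain at 24 h stand apart from the other 6. They carry a shorter gene list (31053 against 32285 genes) and share 8 cell barcodes with each other but 0 to 2 with any of the 6, which share 10 to 32 in each pair. In their macrophage class, hemoglobin genes summed to 249 and 751 CPM, of which only 751 CPM lies above the other libraries (0 to 315 CPM). The study's supplement gives dura at 24 h and brain at 72 h another kit version than the rest, although the barcodes of dura at 24 h go with the 6. Tests, and levels where these 2 libraries change an order, are given with and without them. One title disagrees with the remaining labels of its library, naming brain where these name pia (control). Markers of border macrophages (Pf4, Lyve1, Mrc1 and Ms4a7) summed to 3332 CPM in the macrophage class of that library, near pia at 24 h and dura (2684 to 3713 CPM) and above every brain library (15.2 to 660 CPM). The clusters were made by the authors from the same counts, so that differences between clusters are not independent of how the cells were grouped.

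Of the 8 genes, 6 had a promoter of 300 bases in the RefSeq table (build GRCm38.p6), from 250 bases before the start of transcription to 50 after it. On GRCm38, Insig1 lies at chr5:28071363-28078662 (+), Msmo1 at chr8:64718139-64733792 (-) and Cyp51 at chr5:4081145-4104746 (-). Sqle (chr15:59315077-59331192, +) and Fdft1 (chr14:63145150-63179578, -) are named only. These positions are those of GENCODE M21. SREBP2 binds sterol regulatory elements beside factors that bind CCAAT and GC boxes, and 3 promoters are shown because they hold these letters in different arrangements and belong to the factor itself, to the entry of the mevalonate route and to a gene whose level differed between tissues. Capitals mark TCACNCCAC, a sterol regulatory element pattern, and CCAAT, each on either strand (CCAAT reads ATTGG on the other), and the strand printed is that of the gene, 5′ to 3′. The promoters lie at chr15:82147019-82147318 (+) for Srebf2, chr13:119690101-119690400 (+) for Hmgcs1 and chr13:8885356-8885655 (+) for Idi1.
Srebf2: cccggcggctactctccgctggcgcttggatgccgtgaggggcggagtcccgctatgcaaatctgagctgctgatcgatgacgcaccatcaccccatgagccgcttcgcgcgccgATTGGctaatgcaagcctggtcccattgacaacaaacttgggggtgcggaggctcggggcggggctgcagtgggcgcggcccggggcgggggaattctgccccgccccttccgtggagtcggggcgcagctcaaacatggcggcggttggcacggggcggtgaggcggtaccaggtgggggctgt
Hmgcs1: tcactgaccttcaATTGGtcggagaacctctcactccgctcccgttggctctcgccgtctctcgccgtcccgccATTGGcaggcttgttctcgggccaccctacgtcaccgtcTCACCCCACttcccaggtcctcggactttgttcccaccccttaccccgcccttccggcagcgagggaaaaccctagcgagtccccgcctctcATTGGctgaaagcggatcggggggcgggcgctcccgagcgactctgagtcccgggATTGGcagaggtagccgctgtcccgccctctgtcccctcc
Idi1: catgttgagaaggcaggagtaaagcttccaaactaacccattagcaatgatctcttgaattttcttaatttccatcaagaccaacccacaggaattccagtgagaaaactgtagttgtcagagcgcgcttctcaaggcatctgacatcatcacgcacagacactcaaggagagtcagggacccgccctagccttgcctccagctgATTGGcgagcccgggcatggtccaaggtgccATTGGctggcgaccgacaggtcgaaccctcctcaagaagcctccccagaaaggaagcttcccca

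TCACNCCAC stood in 1 of the 6 promoters, that of Hmgcs1, where it began 137 bases before the start, and in 1.24% of all 32851 promoters in the table. CCAAT stood in 6 of 6 and in 37.4% of all, once in Srebf2 (135 bases before the start), 4 times in Hmgcs1 and 2 times in Idi1 (45 and 14 bases before the start). The GC box GGGCGG, also searched on both strands, stood in 6 of 6 and in 35.7% of all. The search letters were chosen after values of these genes had been seen, and a match is a description of the sequence, not of a bound site.

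Summed over the 8 genes, the mean level was highest in the 2 clusters of dendritic cells and lowest in the granulocyte cluster Granulo_2, an order that holds in part under other settings. The mean was 337 ± 142 CPM in mDC1 (n = 6 libraries), 326 ± 137 CPM in mDC2 (n = 6) and 109 ± 46.2 CPM in Granulo_2 (n = 6), a ratio of 3.10 between the highest and the lowest. Between them lay ILC2, innate lymphoid cells (248 ± 149 CPM, n = 5), the macrophage cluster CAM_1 (245 ± 208 CPM, n = 8) and the stroke-associated myeloid cells, SAMC (188 ± 119 CPM, n = 4). In the order of the 21 cluster means, 0 of 20 neighbours differed by more than the larger of their SDs. Neighbours in a sorted order are close by construction, so this count cannot tell whether clusters further apart differ. With the 6 libraries of the longer gene list mDC1 (349.8 CPM) was still first, while Micro_2 (288 CPM) lay above mDC2 (285 CPM) and ILC2 dropped from rank 3 to 12 (197 CPM). Granulo_2 was no longer the lowest with at least 10 cells per sum (144 CPM), with cells of at least 1000 UMIs (133 CPM) or with the 50 top genes and mitochondrial genes left out of the total (175 CPM), where its ranks were 19, 19 and 18.

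In several clusters the pia libraries were the highest. In CAM_1 the 8 libraries ran from 119 to 675 CPM with a median of 142 CPM, and the 2 pia libraries were the highest at 675 and 462 CPM. Without the 2 pia libraries mDC2 (283 CPM) and mDC1 (255 CPM) remained the 2 highest clusters, while CAM_1 dropped to 137 CPM and Micro_2 from 245 to 133 CPM. SAMC dropped from 188 CPM to 128 CPM, at rank 18. With at least 10 cells per sum, which adds control pia (25 cells), SAMC instead read 271 CPM, at rank 3.

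**Figure D1:**
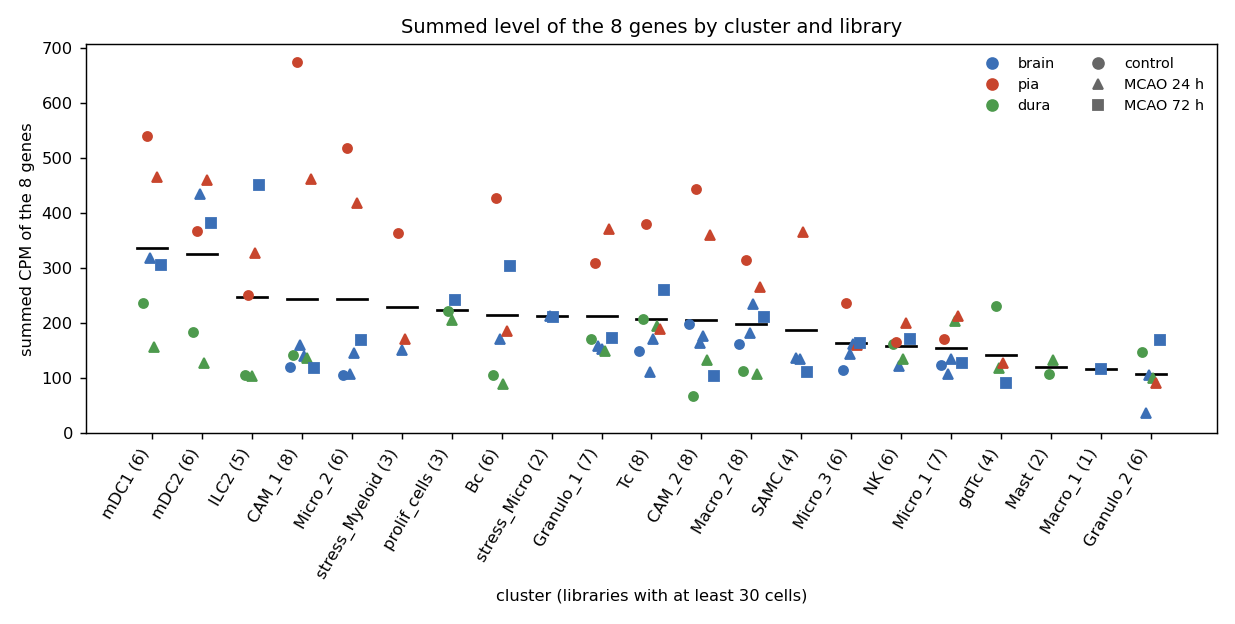
Summed CPM of the 8 genes (vertical axis) in each cluster (horizontal axis, with the number of libraries of at least 30 cells), one point per library, coloured by tissue and shaped by time, with a line at the mean. The dendritic clusters mDC1 and mDC2 lead with means of 337 and 326 CPM, and the pia libraries lie at the top of CAM_1, CAM_2, Micro_2 and Granulo_1.

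The factor's own gene, Srebf2, was highest in mDC1, a conventional dendritic cell cluster, at 105.5 ± 27.8 CPM (n = 6). There it read 78.3 and 78.0 CPM in dura (control first, then 24 h), 93.9 and 111 CPM in pia, 149 CPM in brain at 24 h replicate 2 and 123 CPM in brain at 72 h. Its lowest mean was in Micro_1, the largest microglia cluster, at 24.0 ± 17.2 CPM (n = 7), where the libraries ran from 8.62 to 55.5 CPM. Without the 2 libraries of the shorter gene list mDC1 ran from 78.0 to 111 CPM. The highest Micro_1 library, 55.5 CPM, lay below the lowest mDC1 library. Above 60 CPM on average were also mDC2 (86.3 ± 58.5 CPM), ILC2 (82.0 ± 46.7 CPM) and B cells (65.9 ± 59.4 CPM).

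Hmgcs1 makes the HMG-CoA from which mevalonate is formed, at the entry of the route. Its highest mean was in stress_Myeloid at 68.9 ± 59.7 CPM, which rests on 3 libraries that read 104 CPM in control pia, 103 CPM in pia at 24 h and 0 CPM in brain at 24 h replicate 2, with 6, 6 and 0 UMIs. In Micro_2 it read 104 CPM in control pia and 81.8 CPM in pia at 24 h, against 11.0 CPM in control brain and 14.7, 19.1 and 26.8 CPM in brain after MCAO. Both pia libraries of Micro_2 thus lay above all its brain libraries, on 8 UMIs each. Its lowest mean was in Granulo_1 (14.99 ± 9.29 CPM, n = 7).

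Idi1 turns isopentenyl diphosphate into its isomer, a building block of all later steps. It was highest in mDC2 at 53.5 ± 24.5 CPM (n = 6), with 36.1 and 13.5 CPM in dura (control, then 24 h), 71.8 and 74.9 CPM in pia, 70.6 CPM in brain at 24 h replicate 2 and 53.9 CPM in brain at 72 h. Dura lay below pia and brain in this cluster. Proliferating cells came next (33.6 ± 21.5 CPM, n = 3), and stress_Micro was the lowest cluster with more than 1 library (1.17 ± 1.66 CPM, n = 2).

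Fdft1 joins farnesyl diphosphate into squalene, the first step that leads only to sterols. It had the fewest UMIs, and its highest mean was in proliferating cells at 19.9 ± 11.0 CPM, with 31.2 CPM in control dura, 9.37 CPM in dura at 24 h and 19.1 CPM in brain at 72 h. mDC2 followed at 13.1 ± 8.94 CPM (n = 6). Sqle, squalene epoxidase, adds the oxygen before the ring closes and is a rate-limiting step of the route. Its highest mean was in mDC1 at 28.7 ± 26.8 CPM (n = 6), where the pia libraries read 70.4 and 54.6 CPM and the other 4 libraries 8.86 to 17.2 CPM. No UMI of Sqle was found in mast cells, in either of the 2 libraries.

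Cyp51 and Msmo1 remove methyl groups from lanosterol and its products. Cyp51 was highest in mDC1 (42.2 ± 21.4 CPM, n = 6) and mDC2 (35.9 ± 15.3 CPM, n = 6), and low in Granulo_2 (6.65 ± 6.84 CPM, n = 6). Msmo1 had another order. Its highest means were in the macrophage clusters CAM_2 (67.7 ± 50.6 CPM, n = 8) and CAM_1 (67.1 ± 59.8 CPM, n = 8) and in SAMC (63.0 ± 55.6 CPM, n = 4), above mDC1 (41.8 ± 32.5 CPM, n = 6) within their spread. In SAMC it read 62.8 and 28.7 CPM in the 2 brain libraries at 24 h, 19.1 CPM in brain at 72 h and 142 CPM in the pia library of 24 h. Pia was again the highest library.

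Insig1 holds the SREBP2 precursor back and is itself turned on by it, as part of a feedback. In 11 of 21 clusters its means lay between 46.0 and 56.2 CPM, from Micro_1 to stress_Myeloid. Granulo_2 (12.7 ± 9.62 CPM, n = 6) and mast cells (9.52 ± 3.595 CPM, n = 2) were the lowest. For each gene, 0 of 20 neighbours in its order of clusters differed beyond their spread, except Fdft1 with 1 (Micro_3 above Macro_1, which rests on 1 library). As for the summed level, this count does not tell whether clusters further apart differ.

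**Figure D2:**
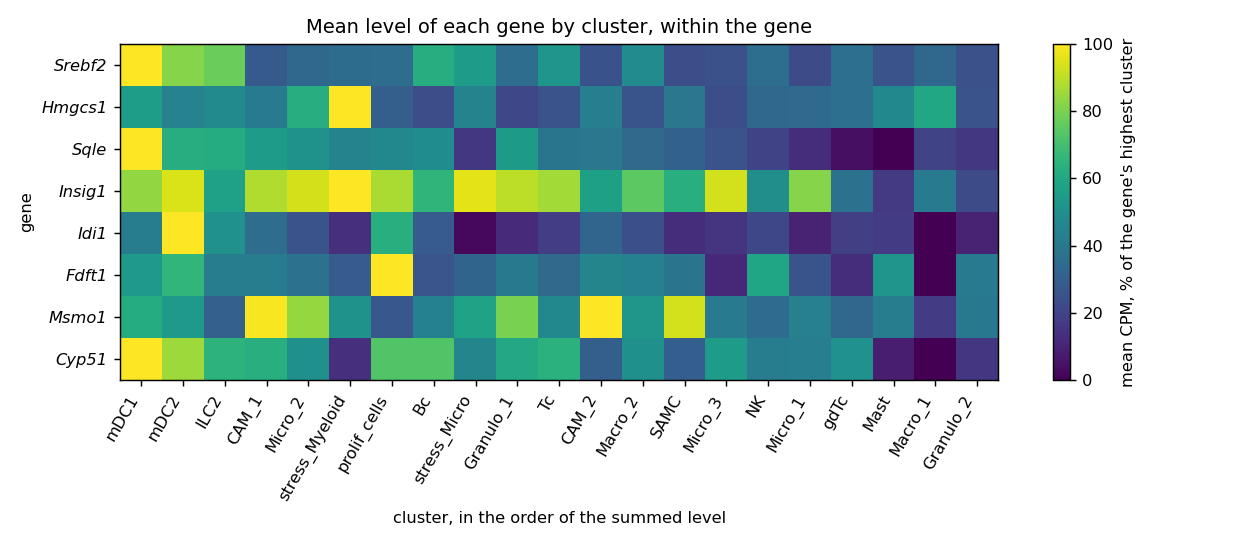
Mean CPM of each gene (rows) in each cluster (columns, in the order of the summed level) as a percentage of that gene's highest cluster, from 0 (dark) to 100 (bright). Srebf2, Sqle and Cyp51 peak in mDC1, Idi1 in mDC2 and Msmo1 in CAM_2, and Insig1 stays bright over most columns.

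For tests, clusters were joined into a macrophage class (CAM_1, CAM_2, Macro_1, Macro_2), a microglia class, a dendritic class (mDC1, mDC2), a granulocyte class, a lymphoid class and SAMC. Each class was compared with macrophages within libraries, with edgeR on summed UMIs over 10256 genes, and a gene was called where its adjusted p (Benjamini-Hochberg) was under 0.05 and it differed 2-fold or more. Marker lists followed the labels of the dendritic, granulocyte and lymphoid classes: dendritic markers summed to 702 to 4360 CPM in the dendritic class and to at most 274 CPM in any library of another class. The macrophage class was less clean, since microglia markers (Tmem119, P2ry12 and Sparc) summed to 127 to 9598 CPM in it. Its brain libraries also held less F13a1 (9.64 to 176 CPM) than those of pia and dura (617 to 1429 CPM). Where this class is compared between brain and the other tissues, cell type and tissue cannot be told apart.

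Dendritic cells had more Srebf2 and Idi1 than macrophages. Srebf2 in the dendritic class ran from 51.9 to 165 CPM with a median of 94.3 CPM over 7 libraries, and in the macrophage class of the same libraries from 14.7 to 62.4 CPM with a median of 45.3 CPM. It was higher in 7 of 7 libraries, with a log2 fold change of 1.42 ± 0.21 (SE, edgeR adjusted p = 1.0e-06). Idi1 ran from 8.92 to 69.5 CPM in dendritic cells and from 5.66 to 51.7 CPM in macrophages, was higher in 7 of 7 libraries, and had a log2 fold change of 1.20 ± 0.29 (edgeR adjusted p = 0.0011). The groups overlap for both genes across libraries. In dura at 24 h the Idi1 values lay close, at 8.92 CPM (11 UMIs) in dendritic cells and 6.61 CPM (18 UMIs) in macrophages. Called higher were 2 of 8 genes and lower 0 of 8, where 7.5% of all genes tested were called higher and 10.8% lower. The median log2 fold change was 0.71 over the 8 genes and -0.04 over all genes. Cyp51 passed the adjusted p but not the fold (0.80 ± 0.27, edgeR adjusted p = 0.021), and Sqle was at 0.90 ± 0.37 (edgeR adjusted p = 0.061), each higher in 7 of 7 libraries. DESeq2 called the same 2. The Idi1 difference was under 2-fold without brain at 72 h (0.97), and with only the 6 libraries of the longer gene list (0.74), and lost its call without the library block (0.99, edgeR adjusted p = 0.27).

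Microglia had less Idi1 than macrophages. In microglia it read 3.6 CPM in control brain, 3.7 and 2.2 CPM in brain at 24 h, 2.4 CPM in brain at 72 h, 16.8 and 16.1 CPM in control pia and pia at 24 h, and 30.4 and 0 CPM in control dura and dura at 24 h. It was lower than in the macrophages of the same library in 7 of 8 libraries, with a log2 fold change of -1.35 ± 0.34 (edgeR adjusted p = 0.0025). The exception was control dura, with only 51 microglia and 2 Idi1 UMIs, while dura at 24 h counted as lower on 0 UMIs from 76 microglia. Microglia of pia and dura also held F13a1 (214 to 836 CPM, against 0 to 9.15 CPM in brain), a gene at 617 to 1429 CPM in the macrophages of pia and dura. Without the library block the call was lost (-1.69, edgeR adjusted p = 0.098). Sqle was lower in 5 of 8 libraries (log2 fold change -1.08 ± 0.42, edgeR adjusted p = 0.048). This call was lost with DESeq2 (-0.75, adjusted p = 0.24) and without brain at 24 h replicate 1 (-0.92), brain at 72 h (-1.05), pia at 24 h (-1.15) or control pia (-0.78), with edgeR adjusted p between 0.074 and 0.21. Srebf2 (-0.79 ± 0.23, edgeR adjusted p = 0.0081) and Msmo1 (-0.70 ± 0.24, edgeR adjusted p = 0.022) stayed under a fold of 2. Called lower were 2 of 8 genes and higher 0, against 6.91% and 5.78% of all genes, and DESeq2 called 1. The median over the 8 genes was -0.72, against 0.03 over all genes.

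SAMC, in which Spp1, Fabp5, Gpnmb and Lpl summed to 26995 to 108536 CPM, were compared with macrophages in 4 libraries. edgeR called 0 of 8 genes in either direction, where 0.205% of all genes were called higher and 1.2% lower. At an unadjusted p under 0.05 stood 2 of 8, and DESeq2 called 0. In SAMC Idi1 read 3.25 and 8.21 CPM in the 2 brain libraries at 24 h, on 3 and 2 UMIs. It read 3.04 CPM in brain at 72 h (7 UMIs) and 13.7 CPM in pia (3 UMIs). Each value lay below the macrophages of the same library (log2 fold change -1.31 ± 0.51, edgeR adjusted p = 0.21). Srebf2 read 20.6, 20.5, 20.0 and 41.1 CPM in the same order, also below the macrophages in 4 of 4 libraries (-0.82 ± 0.32, edgeR adjusted p = 0.21). Hmgcs1 and Msmo1 were at -0.03 ± 0.29 and 0.02 ± 0.30.

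In granulocytes 0 of 8 genes were called by edgeR and by DESeq2, and 0 had an unadjusted p under 0.05, while 8.32% of all genes were called higher and 11.7% lower. The log2 fold changes ran from -0.62 (Idi1) to 0.30 (Fdft1), with a median of 0.03. In lymphoid cells edgeR and DESeq2 called 0 of 8, with 2 at an unadjusted p under 0.05, where 13.9% of all genes were called higher and 18.2% lower. Msmo1 was the one nearest to a call. It ran from 19.2 to 53.7 CPM in lymphoid cells and from 14.5 to 114 CPM in macrophages, was lower in 6 of 8 libraries, and had a log2 fold change of -0.94 ± 0.25 (edgeR adjusted p = 0.0014). It passed 2-fold when brain at 24 h replicate 1 (-1.03) or 2 (-1.13), brain at 72 h (-1.12), control brain (-1.02) or control dura (-1.07) was left out, with edgeR adjusted p of at most 0.0025. Srebf2 was higher in lymphoid cells in 7 of 8 libraries (0.45 ± 0.22, edgeR adjusted p = 0.085).

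**Figure D3:**
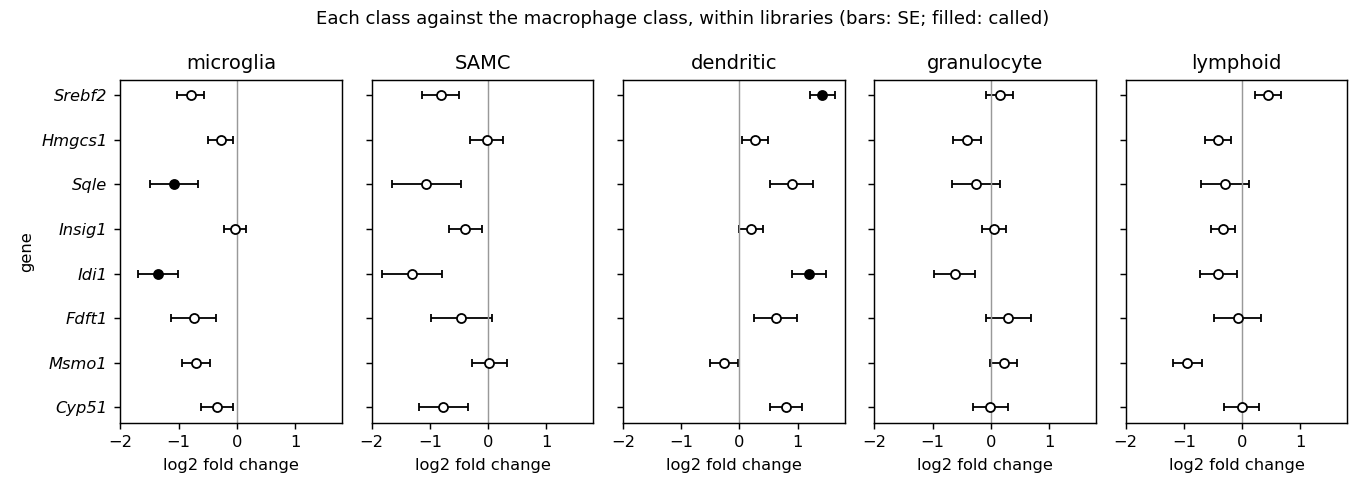
Log2 fold change of each gene (rows) between a class and the macrophage class within libraries (horizontal axis, one panel per class), with bars of 1 SE and filled points where a gene was called. Idi1 lies at -1.35 in microglia and at 1.20 in dendritic cells, and Srebf2 at 1.42 in dendritic cells.

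In the macrophage class both pia libraries read higher than all others for 7 of the 8 genes, and the test over all libraries called 0 of them. Summed over the 8 genes, the macrophage class read 444 CPM in control pia and 368 CPM in pia at 24 h, against 147 CPM in control brain, 162 and 193 CPM in brain at 24 h, 147 CPM in brain at 72 h, 116 CPM in control dura and 119 CPM in dura at 24 h. Both pia libraries lay above the other 6. Exact 95% Poisson intervals, which cover counting error only, were 423 to 464 CPM for control pia and 165 to 224 CPM for brain at 24 h replicate 2, the highest of the rest.

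Sqle had the largest ratio of means between pia and the rest (7.85). It read 32.4 CPM in control pia and 39.8 CPM in pia at 24 h, on 134 and 160 UMIs. In control brain it had 0 of 661472 UMIs, for which the exact interval reaches 5.58 CPM. In brain at 24 h it read 11.0 and 6.7 CPM, in brain at 72 h 4.8 CPM, and in dura 3.2 and 1.8 CPM. Idi1 read 51.7 and 32.6 CPM in pia (control first), 4.5 CPM in control brain, 6.0, 10.0 and 5.7 CPM in brain after MCAO, and 12.4 and 6.6 CPM in dura. Neither gene overlapped between pia and the other libraries.

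Msmo1 in the macrophage class read 114 and 101 CPM in pia, 29.4 and 38.5 CPM in dura, 40.8 CPM in control brain and 60.2, 14.5 and 20.4 CPM in brain after MCAO. Cyp51 read 45.4 and 40.8 CPM in pia, with 9.2 and 10.6 CPM in dura, 13.6 CPM in control brain and 12.4, 31.2 and 10.7 CPM in brain after MCAO. Insig1 read 87.4 and 54.5 CPM in pia and 24.3 to 37.8 CPM in the other 6 libraries. Hmgcs1 (32.9 to 45.9 CPM against 11.4 to 27.5 CPM elsewhere) and Fdft1 (13.8 to 15.4 CPM against 1.8 to 10.6 CPM) had narrower gaps. Srebf2 was the exception: it read 52.9 and 50.8 CPM in pia but 62.4 and 45.3 CPM in the 2 libraries of the shorter gene list, against 14.7 to 20.7 CPM in the other 4. In 7 of 8 genes pia lay above all other libraries, as it did for 2.06% of 9481 genes.

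**Figure D4:**
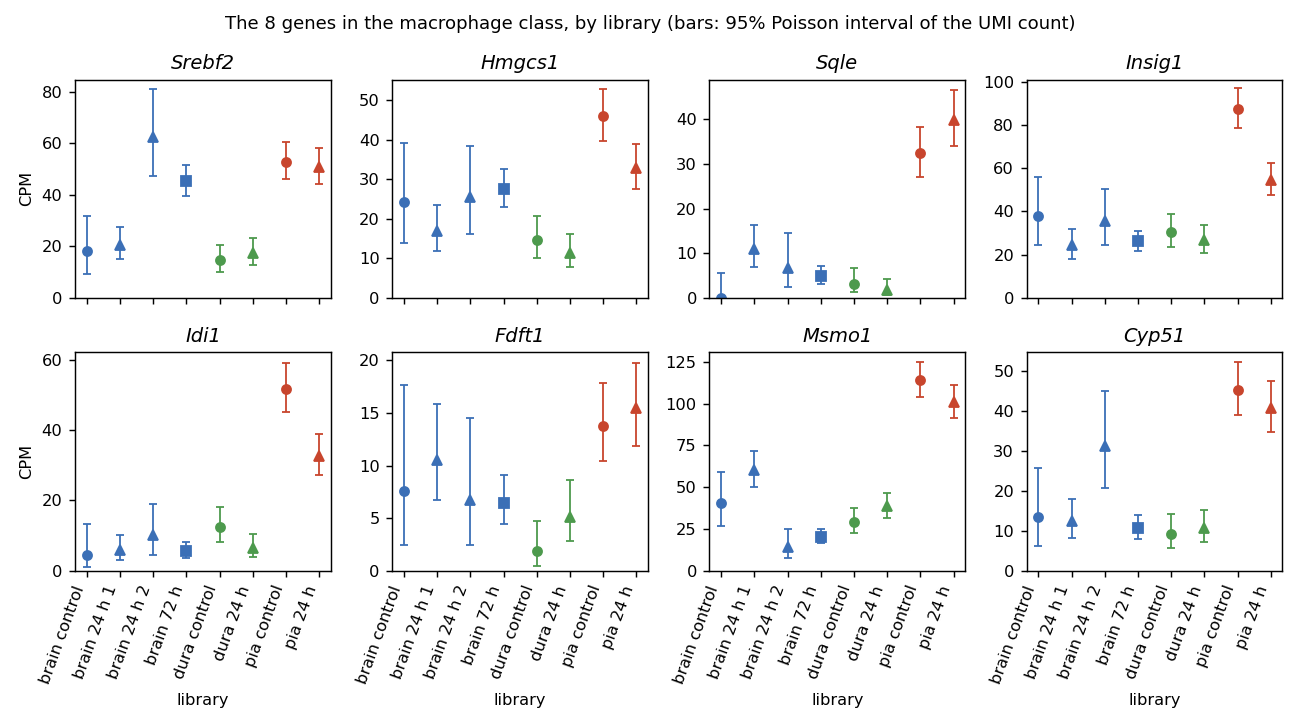
CPM of each gene (one panel each, linear axes from 0) in the macrophage class of each library, coloured by tissue, with exact 95% Poisson intervals of the UMI count. The pia libraries read 32.4 and 39.8 CPM for Sqle where the other 6 read 0 to 11.0 CPM, and in Srebf2 alone the pia values fall within the range of the rest.

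A comparison of pia with the mean of brain and dura was added after these levels had been seen, in a model with tissue and time over the 7 libraries of control and 24 h. For the brain part of that mean, cell type and tissue cannot be told apart in the macrophage class. edgeR called 0 of 8 genes and 0% of all genes in macrophages, and DESeq2 called 2 (Sqle and Idi1). On simulated counts for MCAO at 24 h in macrophages, 22.1% of the DESeq2 calls were false. All 8 genes had an unadjusted p under 0.05 with edgeR. The share of all genes at that threshold is not given, here or in the other comparisons. Without brain at 24 h replicate 2, which leaves 1 library for each tissue and time and only libraries of the longer gene list, 8 of 8 genes were called higher, where 3.81% of all genes were called higher and 0.881% lower. The log2 fold changes were then 3.26 ± 0.42 for Sqle (edgeR adjusted p = 0.0036), 2.64 ± 0.24 for Idi1 (edgeR adjusted p = 0.0011), 2.11 ± 0.21 for Cyp51 and 1.72 ± 0.19 for Srebf2. The other 4 genes lay between 1.42 (Insig1) and 1.56 (Msmo1), and the highest adjusted p of the 8 was 0.022 (Fdft1). Of the libraries left out in turn, only that one gave calls in macrophages. For Srebf2 that library read 62.4 CPM, the highest value of the macrophage class and above both pia libraries. With 1 library for each tissue and time, the tests take the 2 libraries of a tissue as its replicates.

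The other classes of pia were compared in the same way, and in the fits with all libraries edgeR called 0% of all genes in each. In dendritic cells both pia libraries lay above the rest for Sqle, Insig1, Idi1 and Msmo1. Among the classes, the share of all genes with both pia libraries above the rest was counted for macrophages only. For Idi1 the pia libraries read 69.5 and 50.5 CPM, against 8.92 to 37.3 CPM. For Msmo1 control pia (53.6 CPM, 27 UMIs) lay hardly above brain at 24 h replicate 1 (53.0 CPM, 9 UMIs). edgeR and DESeq2 called 0 of 8 genes (4 and 2 at an unadjusted p under 0.05), and edgeR also called 0 without brain at 24 h replicate 2, where 0.0624% of all genes were called. Without brain at 24 h replicate 1 instead, replicate 2 was the only brain library of the fit, so the calls of that fit are not listed. Each of these fits also takes the change at 24 h to be the same in all tissues.

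In granulocytes Sqle read 51.9 and 22.5 CPM in pia and 1.9 to 8.05 CPM elsewhere. Cyp51 read 60.6 and 42.7 CPM in pia against 2.72 to 16.1 CPM. Control pia held 65 granulocytes, with 6 UMIs of Sqle. Of the 6 genes tested, 0 were called by edgeR or DESeq2 (2 at an unadjusted p under 0.05 in each), nor without brain at 24 h replicate 2, where 0.0169% of all genes were called. Without replicate 1, Cyp51 and Sqle were called higher, beside 3.85% of all genes called higher. In lymphoid cells the summed level overlapped (207 and 328 CPM in pia, 127 to 261 CPM elsewhere), 0 of 7 genes were called by either tool (3 at an unadjusted p under 0.05), and 0 without replicate 2, beside 0.736% of all genes. In microglia the summed level overlapped too, through dura at 24 h (240 CPM from 76 cells), and edgeR called 0 of 6 genes (1 at an unadjusted p under 0.05), while DESeq2 gave none of the 6 an adjusted p and 0 had an unadjusted p under 0.05. Without replicate 2, Insig1 was called higher (1.36 ± 0.35, edgeR adjusted p = 0.018), beside 3.78% of all genes called higher.

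Cluster by cluster, the level in pia stood out most for Sqle and Idi1. Of the 13 clusters that held 2 pia libraries and at least 2 others, both pia libraries lay above all others in 11 for Sqle, 11 for Idi1, 9 for Msmo1, 6 for Cyp51, 5 for Insig1, 4 for Srebf2, 3 for Hmgcs1 and 1 for Fdft1. Some of these rest on fewer than 3 UMIs. Sqle had 1 UMI in control pia in each of NK cells, ILC2, Micro_2 and Micro_3, and Idi1 had 1 UMI in B cells of pia at 24 h. Over 9481 genes the median was 0 clusters, and 1.51% reached at least 5, 0.0633% at least 9 and 0.0211% at least 11. The last share is 2 genes, Sqle and Idi1 themselves. The other genes with 9, seen only after the count, were F13a1, Lmna and Ptgds. Among those with 8 were Fdps of the same route, the stress gene Hspa1a, and Ccl12, Cxcl2, Eif4a1 and Ifrd1. The part of stress genes in the pia values was not tested. The summed level had a higher mean in pia in 13 of 13 clusters, by a ratio from 1.24 in NK cells to 4.16 in CAM_1, with a median of 1.72.

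Ptgds is known from cells of the leptomeninges, so its level is given beside these values. In the macrophage class it read 205 and 283 CPM in pia (control first) and 0 to 43.5 CPM elsewhere. In the other classes of pia it read 51.6 and 21.9 CPM in dendritic cells, 199 and 20.2 CPM in granulocytes, 51.0 and 71.1 CPM in lymphoid cells and 63.3 and 85.7 CPM in microglia. Sqle in the same libraries read 32.4 and 39.8 CPM in macrophages, 35.7 and 48.0 CPM in dendritic cells, 51.9 and 22.5 CPM in granulocytes, 18.8 and 20.3 CPM in lymphoid cells and 3.72 and 24.98 CPM in microglia. Outside pia, Ptgds in microglia read 90.1 CPM in brain at 24 h replicate 2, 76.0 CPM in control dura (5 UMIs) and 0.406 to 27.5 CPM in the rest. It read 0 to 24.9 CPM in dendritic cells, 0 to 12.5 CPM in granulocytes and 0 to 28.0 CPM in lymphoid cells outside pia, each highest in brain at 24 h replicate 2. Its level was thus not particular to pia in microglia, and in dendritic cells it overlapped. The part of RNA from outside the cells in the pia values was not tested. Fibroblast markers in the pia macrophage class summed to 7.49 to 9.46 CPM, between brain (0 to 1.62 CPM) and dura (27.2 to 39.0 CPM), and hemoglobin genes to 0 to 1.74 CPM. Markers of endothelium (1.45 to 2.24 CPM in pia, 5.50 to 45.7 CPM elsewhere) and neurons (0.966 to 1.25 CPM, 0 to 27.9 CPM) were low in pia, and those of astrocytes (24.9 to 29.9 CPM, 1.51 to 55.7 CPM), oligodendrocytes (73.5 to 95.9 CPM, 65.0 to 165 CPM) and the cell cycle (10.46 to 11.8 CPM, 7.56 to 27.9 CPM) lay within the range of the rest. In macrophages the stress genes Fos, Jun, Egr1, Hspa1a and Hspa1b summed to 2995 and 4636 CPM in pia, above dura (1827 to 2748 CPM). Brain ran from 3647 to 17240 CPM, with the pia value of 2995 CPM below that range and 4636 CPM within it. Pia and dura were digested alike and longer than brain, which alone passed a Percoll gradient, and tissue and this preparation cannot be told apart for brain.

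At 24 h after MCAO 0 of the 8 genes were called in any class. In macrophages the summed level was 147 CPM in control brain and 162 and 193 CPM at 24 h, 444 and 368 CPM in pia, and 116 and 119 CPM in dura. The Poisson intervals of control and 24 h overlap in brain and in dura, and do not in pia. Across tissues edgeR called 0 of 8 genes in macrophages at 24 h, as DESeq2 did, with 0 at an unadjusted p under 0.05 and 0% of all genes called. Without brain at 24 h replicate 2 it was again 0 of 8 (3 at an unadjusted p under 0.05), where 1.44% of all genes were called. The log2 fold changes ran from -0.49 (Insig1) to 0.55 (Sqle).

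In microglia 0 of 6 genes tested were called by either tool and 0% of all genes. Sqle had the largest value and the 1 unadjusted p under 0.05. It read 0.66 CPM in control brain and 2.44 and 7.83 CPM in brain at 24 h, with a log2 fold change over tissues of 2.83 ± 1.01 (edgeR adjusted p = 1). Pia read 3.7 CPM in control and 24.98 CPM at 24 h, and dura 0 and 22.5 CPM, from 51 and 76 cells. Without brain at 24 h replicate 2, 0 of 6 were called (1 at an unadjusted p under 0.05) beside 2.23% of all genes, with Sqle at 2.20 ± 0.78 (edgeR adjusted p = 0.11).

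In dendritic cells (8 genes tested), granulocytes (6) and lymphoid cells (7) none was called at 24 h by edgeR or DESeq2, with 0 at an unadjusted p under 0.05 in each, and edgeR called 0% of all genes in each. Without brain at 24 h replicate 2 it was still 0 (2, 0 and 2 at an unadjusted p under 0.05), where 1.16%, 0.0508% and 0.704% of all genes were called. Without dura at 24 h, edgeR called 0 of the genes tested in macrophages, microglia and lymphoid cells, and the dendritic and granulocyte classes could not be fitted. The supplement gives that library another kit version, but its barcodes and gene list go with the libraries of the longer list. Leaving it out is therefore no check of the kit. Control brain held too few dendritic cells and granulocytes to enter. Idi1 in dendritic cells read 25.1 CPM in control dura and 8.9 CPM at 24 h, and 69.5 and 50.5 CPM in pia (edgeR adjusted p = 1). In lymphoid cells 7 of 7 genes were lower at 24 h in the fit, from -0.86 (Cyp51) to -0.10 (Hmgcs1), a direction for which no share of all genes is given. On simulated counts for these comparisons, edgeR found from 5.5% (granulocytes) to 56.5% (lymphoid cells) of genes changed 4-fold, so that changes of this size could be missed.

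**Figure D5:**
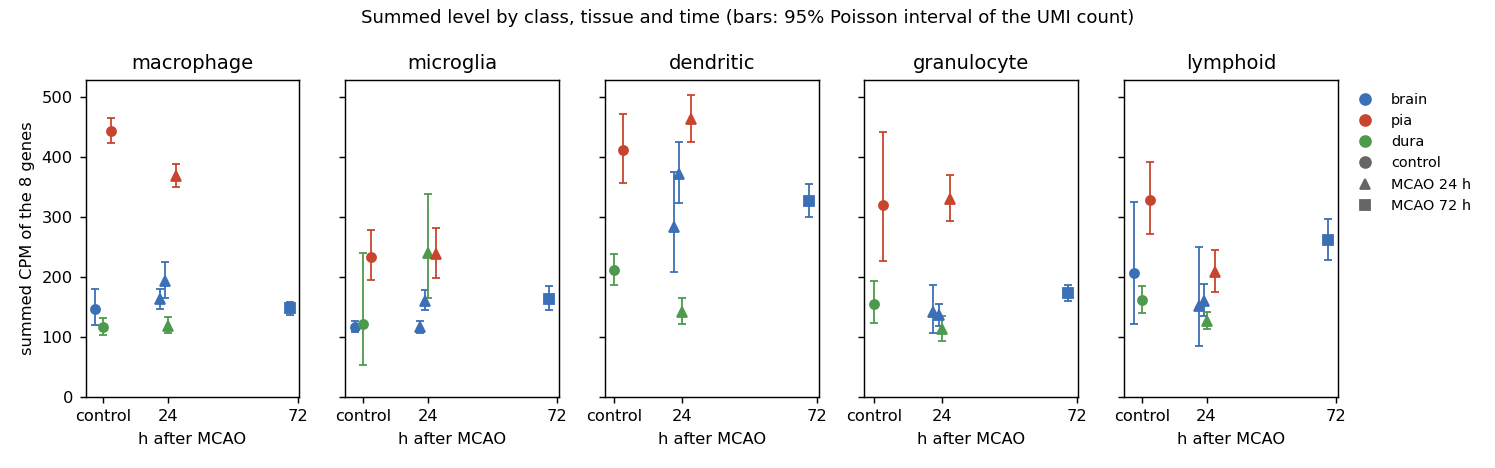
Summed CPM of the 8 genes (vertical axis) in each class (panels) for control, 24 h and 72 h after MCAO (horizontal axis), by tissue, with exact 95% Poisson intervals and points set apart sideways within a time. In macrophages the pia libraries lie at 444 and 368 CPM and the other 6 between 116 and 193 CPM at every time.

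At 72 h there was 1 library, of brain and of the shorter gene list, so that time and this difference between libraries cannot be told apart and no test was made. Its values are set beside brain at 24 h replicate 2, the other library of that list. The 2 libraries differ in depth, with medians of 2505 (72 h) and 1083 (24 h) UMIs per annotated cell. The macrophage class held 212 CAM_1, 642 CAM_2 and 570 Macro_2 cells at 72 h, against 165, 89 and 93 at 24 h. The intervals below cover counting error only. In macrophages the summed level was 147 CPM at 72 h (interval 137 to 158 CPM) and 193 CPM at 24 h, with Cyp51 at 10.7 and 31.2 CPM and Srebf2 at 45.3 and 62.4 CPM. In lymphoid cells it was 261 CPM at 72 h and 159.9 CPM at 24 h, with Srebf2 at 91.3 and 48.1 CPM. The intervals do not overlap in macrophages or lymphoid cells. They do in microglia (164 and 160.2 CPM), dendritic cells (327 and 371 CPM) and SAMC (112 and 136 CPM). In SAMC at 72 h, Hmgcs1 read 35.2 CPM and Idi1 3.04 CPM.

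The macrophage class of brain was compared with the mean of pia and dura by a test set with the other comparisons. In this class F13a1 read 28.7 CPM in control brain and 9.64 and 176 CPM in brain at 24 h, against 617 to 1429 CPM in dura and pia. The classes thus differ in their cells as well as in tissue, and the 2 cannot be told apart here. All 8 genes were lower in brain in the fit, with log2 fold changes from -1.83 (Idi1) to -0.28 (Fdft1), a direction for which no share of all genes is given. edgeR called 0 of 8 (Idi1 edgeR adjusted p = 0.079), with 2 at an unadjusted p under 0.05 and 3.65% of all genes called. DESeq2 called 1 (Idi1). Without brain at 24 h replicate 2, Idi1 (-2.06 ± 0.34, edgeR adjusted p = 0.0028) and Cyp51 (-1.10 ± 0.27, edgeR adjusted p = 0.013) were called lower, beside 23.8% of all genes. Of the other enzymes, Pmvk was lower in brain with all libraries (-1.53 ± 0.30). The mean of pia and dura joins the highest and the lowest tissue, and brain lay above dura in the summed level of macrophages in each of its 4 libraries. In lymphoid cells 0 of 7 genes were called by either tool, with 0 at an unadjusted p under 0.05, beside 0.152% of all genes.

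Other genes of sterol metabolism were counted by lists. Of 13 further enzymes of the route, 10 were tested between classes, and dendritic cells had 2 called higher than macrophages and 0 lower: Fdps, which makes farnesyl diphosphate (log2 fold change 1.13 ± 0.25), and Mvd, which forms isopentenyl diphosphate (1.13 ± 0.30). Of all genes, 7.5% were called higher and 10.8% lower in this comparison. Microglia and SAMC had 0 in either direction, granulocytes 1 higher (Mvd, 1.19 ± 0.30) and 1 lower (Dhcr7, -1.69 ± 0.37), and lymphoid cells 2 higher (Mvk and Sc5d, 1.498 and 1.07) and 1 lower (Pmvk, -1.06), beside 8.32% and 11.7% of all genes in granulocytes and 13.9% and 18.2% in lymphoid cells. The medians of the list ran from -0.27 (microglia) to 0.29 (dendritic cells), against -0.08 to 0.03 over all genes.

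The list of cholesterol efflux, storage and LXR genes ran the other way in dendritic cells, with 0 of 9 called higher and 4 lower. The genes lower were Ch25h, which makes 25-hydroxycholesterol (-5.18 ± 0.71), the efflux transporter Abca1 (-4.17 ± 0.36), Nr1h3, which encodes LXR alpha (-2.32 ± 0.59), and Mylip (-1.68 ± 0.23). Lymphoid cells had 6 of 9 lower, granulocytes 3 of 9 (Ch25h, Abca1 and Mylip), microglia 1 (Nr1h3, -3.43 ± 0.62) and SAMC 1 (Cyp27a1, a sterol 27-hydroxylase, -2.56 ± 0.56), with 0 higher in each. The shares of all genes called lower were 10.8% in dendritic cells, 18.2% in lymphoid cells, 11.7% in granulocytes, 6.91% in microglia and 1.2% in SAMC. Of 11 genes of SREBP processing and sterol targets, dendritic cells had Erlin1, of a complex that binds INSIG, higher (1.36 ± 0.21) and Tmem97 lower (-1.05 ± 0.26). Lymphoid cells had the sterol carrier Stard4 higher (1.66 ± 0.29) and Erlin1, Erlin2 and Tmem97 lower, microglia Stard4 lower (-1.29 ± 0.39), and SAMC and granulocytes 0 in either direction. Of 9 fatty acid synthesis genes, of which 6 were tested, Scd1 was higher in dendritic (2.44 ± 0.49) and lymphoid cells (4.88 ± 0.40). Fads1 was lower in lymphoid cells and granulocytes, Fasn lower in granulocytes, and microglia and SAMC had 0 called.

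In the pia comparison without brain at 24 h replicate 2, macrophages had 4 of 13 further enzymes called higher and 0 lower. These were Lss, which closes the sterol rings (1.97 ± 0.48), Fdps (1.6003 ± 0.16), Sc5d (1.54 ± 0.22) and Acat2, which joins acetyl groups at the start (1.10 ± 0.21), and the median of the list was 0.86 against 0.00 over all genes. Stard4 was the 1 of 11 called higher among SREBP processing genes and sterol targets (3.04 ± 0.38), with 0 lower. Of the efflux list 0 of 9 were higher and 1 lower, the efflux transporter Abcg1 (-1.85 ± 0.26), and of the fatty acid genes 0 of 4 tested were called. In that fit 3.81% of all genes were called higher and 0.881% lower. How many of the 13, 11 and 9 genes were tested in it is not given. With all libraries, 0 genes of these lists were called in pia. At 24 h after MCAO 0 genes of the 4 lists were called in any class, with all libraries and without that one.

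The genes whose levels ran most like the summed 8 were sought over the 112 sums of a library and a cluster, among 5831 genes, after each library's mean had been taken off. Among the 10 highest Pearson correlations, given as a description, were those of Fdps (r = 0.65), the aryl hydrocarbon receptor gene Ahr (0.52), Pmvk (0.50), Rpl28 (0.50), the dendritic cell gene Cd209a (0.50), Pqlc1 (0.49), Hnrnpd (0.48), Nap1l1 (0.48) and Flt3 (0.47), a receptor of dendritic cells and their precursors. Fdps and Pmvk belong to the same route. The sums of a library share its depth and preparation, and those of a cluster its cell type. Among the 8 genes, r with the sum of the other 7 ran from 0.19 (Hmgcs1) to 0.55 (Sqle) with the library means taken off and from 0.34 (Hmgcs1) to 0.70 (Sqle) without.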

How the data were processed

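Single-cell RNA-seq of 8 libraries was analysed from UMI counts per gene and barcode, which the authors made with Cell Ranger 6.0 on mm10 per the submitters' processing notes and deposited without normalization. The authors also deposited a table of clusters, for which they had removed cells by gene number and mitochondrial share and doublets, and its UMAP coordinates, scores made by the authors that were not used. No doublet caller was run here. Genes were matched by Ensembl identifier, so that the 30406 genes of both gene lists entered.

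UMIs were summed per library and cluster (at least 30 cells) and given as CPM, with exact 95% Poisson intervals that cover counting error only and a floor of 3 UMIs. Classes were compared with edgeR 4.0.16 in R 4.3.3 (filterByExpr, TMM, quasi-likelihood test, Benjamini-Hochberg over all genes tested) with the library as a block. MCAO and tissue comparisons used one fit with tissue and time on the 7 libraries of control and 24 h. DESeq2 1.42.0, other scalings and filters, and each library left out in turn were alternatives. Both tools were tested on simulated data. Python 3.11.15, pandas 2.3.3 and matplotlib 3.10.9 served for tables and figures.

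Libraries are the replicates, and p-values measure only the spread between them, which may be technical. Total UMIs were 6591898 to 20754181 per library. The genes and lists were chosen with earlier results of these data known, and the pia comparison, its counts over clusters, Ptgds and the promoter letters after values had been seen. Named were the 8 genes throughout, up to 4 called genes of each list by size of fold change, and genes among the 10 most like the summed level (log2(CPM + 10), mean of at least 20 CPM). Some genes of the pathway and of the marker lists are not reported here, and were left out of the lists' counts and sums.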

Additional observations from a re-analysis of the deposited data

Results flagged for a closer look

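In the macrophage class the difference in the summed level of the 8 genes, mean at 24 h minus control, had another sign in pia than in brain and dura, although the Poisson intervals of control and 24 h overlap in brain and dura. It was 30.8 CPM in brain and 2.52 CPM in dura, and -75.4 CPM in pia. In dendritic cells the difference was 52.0 CPM in pia and -68.9 CPM in dura, and in granulocytes 9.82 CPM in pia and -42.2 CPM in dura. Each rests on 1 control library and 1 or 2 libraries at 24 h, and the differences between tissues were not tested.

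Barcodes that the authors gave no cluster entered no comparison. In brain at 72 h they read 184 CPM over the 8 genes, above 129.9 CPM in those of control brain. The annotated cells of the same libraries read 179 and 122 CPM.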

How the results depend on the processing

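Of 1355 refits of a single gene of the 8, under 14 alternative settings, 88 changed sign, 0 of them with a call, while 13 calls were lost and 35 won. The causes were not tested. No paired analysis was possible because the groups share fewer than 2 replicate numbers. Without one of the control or 24 h libraries of pia or dura, no fit of dendritic cells or granulocytes over tissue and time was possible.

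Of the 8 genes, dendritic cells had 2 called, 1 with the 6 libraries of the longer gene list or no library block, and 1 to 3 with a library left out. Microglia had 2, with 1 under the 6 libraries, DESeq2, no TMM or no filter on low counts, 0 without the block, and 1 to 2 with a library left out. Lymphoid cells had 0, with 1 under the 6 libraries, at least 10 cells or no block, and 0 to 1 with a library left out. In the macrophage class of brain 0 became 1 with DESeq2 or no filter and 0 to 2 with a library left out. In pia macrophages 0 became 2 with DESeq2, 4 with no filter and 0 to 8 with a library left out, and in pia the range was 0 to 5 for dendritic cells, 0 to 2 for granulocytes and 0 to 1 for microglia. For dendritic cells and granulocytes, the fits without a brain library at 24 h hold only 1 brain library.

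Counts of all genes called moved more. At 24 h after MCAO they were 0, and with DESeq2, no filter and a library left out they were 17, 73 and 0 to 136 in macrophages, 7, 11 and 0 to 141 in microglia, 2, 7 and 93 to 130 in dendritic cells, and 5, 6 and 3 to 101 in granulocytes, with 8 (no filter) and 0 to 44 in lymphoid cells. In pia, from 0, they were 54, 152 and 0 to 442 in macrophages, 17, 10 and 0 to 258 in microglia, 2, 6 and 5 to 561 in dendritic cells, 1, 4 and 1 to 698 in granulocytes, and 2, 18 and 0 to 46 in lymphoid cells. In brain, 346 in macrophages became 1005, 1262 and 0 to 2244, with 614 without TMM, and 11 in lymphoid cells became 106, 347 and 0 to 174. For SAMC 144 became 0 with the 6 libraries, 219 with at least 10 cells, 95 without TMM, 461 with no filter, 18 without the block and 28 to 128 with a library left out, and for microglia 1302 became 651 with the 6 libraries and 573 without the block.

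The mean summed level moved by over 1 SD in 9 of 20 clusters when the 50 top genes and mitochondrial genes were taken out of the total. Granulo_2 then read 175 CPM in place of 109 CPM and moved from rank 21 to 18, with Macro_1, mast cells and gdTc below it. It moved so in 1 of 20 with at least 10 cells, in 1 of 20 with cells of at least 1000 UMIs, in 0 of 19 with the 6 libraries and in 0 of 20 without pia.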
